A study of Mus musculus with 18 samples.

Results

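Natural killer (NK) cells were described here by 2 of the 18 arrays of the series, those of spleen cells sorted as NK1.1+ and TCRB-. They were chosen by population label and set against the mean of the means of the 8 other sorted populations, across all 19752 genes tested. The arrays were of the Affymetrix Mouse Gene 1.0 ST type, with 2 arrays for each of 9 populations. All 18 came from male C57BL/6 mice aged 6 weeks that had received 10000 U of interferon gamma (IFNg) under the skin, at 2 h after the injection. Untreated mice were not analysed here, so every difference below is a difference between populations of treated mice and not a response to IFNg.

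The NK gate named NK1.1+ and excluded TCRB, and it named no marker that excludes gamma delta T cells or other innate lymphoid cells. NKT cells were NK1.1+ TCRB+, gamma delta T cells (Tgd) were TCRgd+ TCRB-, CD8 T cells (T8) were CD8+ TCRB+, CD4 T cells (T4) were CD4+ TCRB+, and the Treg population was CD4+ TCRB+ CD25+. These 5 were the other lymphoid populations. The 3 myeloid ones were dendritic cells (DC, CD11c+ MHCII+ Flt3+), granulocytes (GN, Ly6G+) and macrophages (MF, F4/80+ ICAM2+). Macrophages came from the peritoneal cavity and the remaining populations from spleen. The labels did not say whether the 2 arrays of a population came from separate mice, so a p-value here covers no more than the scatter between those 2 arrays, and that scatter may be purely technical.

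NK cells are lymphocytes that kill infected or transformed cells without a rearranged antigen receptor. They read their targets through paired activating and inhibitory receptors, many of them in mice C-type lectins of the Klr families, and they kill with perforin and granzymes stored in granules. NK cells are also a main early source of IFNg, which acts through the receptor chains Ifngr1 and Ifngr2 and induces Irf1, GTPases and antigen presentation genes in cells that receive it.

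The NK markers were high on the arrays labelled NK. Ncr1, the NK receptor NKp46, had log2 intensities of 12.89 and 13.10 in NK, against a lowest value of 4.87, a median of 5.21 and a highest of 9.03 on the 16 other arrays. Klra8, the receptor Ly49H that binds a cytomegalovirus protein, had 12.04 and 11.90 in NK, against 4.65, 5.60 and 6.54 (lowest, median and highest) on the other arrays. Klrb1c, which encodes the sorted antigen NK1.1, had 12.56 and 12.58 in NK, against 5.001, 6.01 and 12.13 on the others. Both NK arrays lay above all 16 others for each of the 3 genes, but the NKT arrays, sorted for the same antigen, came close for Klrb1c. NK differed from NKT by 0.46 ± 0.21 (SE) in that gene, which was not called (limma adjusted p = 0.167).

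Median intensities ran from 138.51 to 151.03 over the 18 arrays. The 2 NK arrays, labelled replicates 2 and 3, correlated with r = 0.9901 over probe sets, the lowest value within any population (highest 0.996), and array weights fitted per population were lowest for NK, at 0.4639. The spread behind each SE and p-value is pooled over all populations, so it may understate the scatter of NK. Between them, 51 genes differed by 2-fold or more, 23 higher and 28 lower on replicate 3, against 143 for DC and 13 to 40 for the other populations. The correlation of NK arrays with other arrays was 0.9658 to 0.9688 for NKT, 0.9663 to 0.968 for Tgd and 0.8416 to 0.8556 for GN. Replicate 2 of DC was high in granulocyte transcripts, with a summed intensity of 12 granulocyte markers of 8690.9 on one DC array and 30709.6 on the other, against 902.6 and 1460.4 in NK and 91105.0 to 103151.8 in GN.

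Against the mean of the 8 other populations, the genes highest in NK were lectin and other receptors, granule proteases and an adaptor protein, and the genes lowest in NK included Slfn1, Slfn5 and antiviral and GTPase genes of the interferon response. A gene was called when its Benjamini-Hochberg adjusted p in limma was under 0.05 over all genes and the difference was at least 2-fold. By that rule 484 of 19752 genes (2.45%) were higher and 517 (2.62%) lower in NK. The median difference over all genes was -0.02 on the log2 scale. Both NK arrays lay above all 16 others for 720 genes (3.65%) and below all of them for 328 (1.66%).

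**Figure D1:**
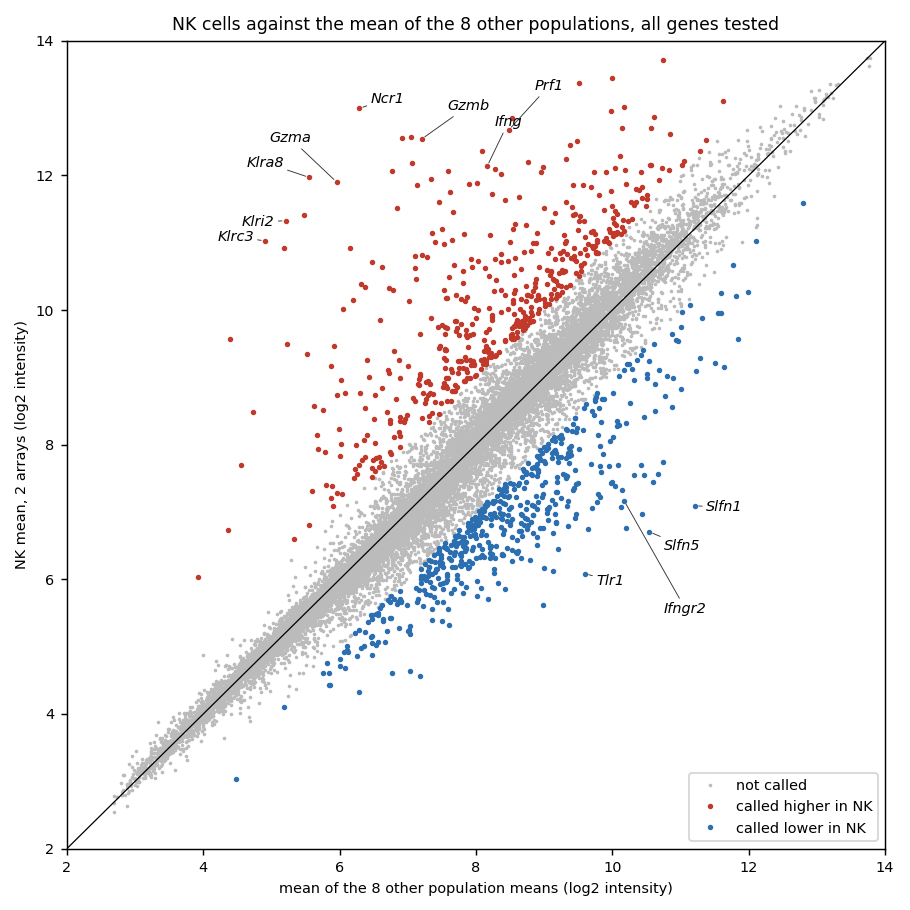
Each point is 1 of the 19752 genes tested, with the NK mean of 2 arrays on the vertical axis and the mean of the 8 other population means on the horizontal axis, both as log2 intensity, and a line at equal values. Red points (484) were called higher and blue points (517) lower in NK; Ncr1 lies 6.71 above the line and Slfn1 lies at -4.12 from it.

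The 12 genes with the largest positive differences were Ncr1 (6.71), Klra8 (6.42), Klrc3 (6.13), Klri2 (6.12), Gzma (5.95), Klrb1a (5.95), Sh2d1b1 (5.75), Klrb1b (5.63), Klrb1c (5.51), Gzmb (5.34), Klra3 (5.31) and Klre1 (5.18), all as log2 differences. Of these, 9 are receptors, Gzma and Gzmb are granule proteases, and Sh2d1b1 is EAT-2, an adaptor of SLAM family receptors. The 10 lowest were Slfn1 (-4.12), Slfn5 (-3.84), Tlr1 (-3.52), Oas2 (-3.47), Iigp1 (-3.44), Sgms1 (-3.35), Parp12 (-3.16), Ifit1 (-3.11), Ifi27l2a (-3.04) and Ifngr2 (-3.01). Tlr1 is a receptor for bacterial lipopeptides, Sgms1 a sphingomyelin synthase, and Ifngr2 the second chain of the IFNg receptor.

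Promoters are shown for some genes of the 2 sets called against each of the 8 populations, as described further on. The genes shown were picked because their windows hold the motif marked in them. Genes without that motif are not shown, so the windows do not represent their sets. Windows run from 250 bases before to 50 bases after the gene start, 5′ to 3′ on the gene's strand, from the RefSeq table of build GRCm38.p6. Capitals mark matches, on either strand, to TGTGGT, the core that RUNX factors bind. The first 3 are genes high in NK, Gzma at chr13:113100932-113101231 (minus strand), Gzmb at chr14:56262285-56262584 (minus strand) and the first listed start of Ncr1 at chr7:4337465-4337764 (plus strand).
Gzma: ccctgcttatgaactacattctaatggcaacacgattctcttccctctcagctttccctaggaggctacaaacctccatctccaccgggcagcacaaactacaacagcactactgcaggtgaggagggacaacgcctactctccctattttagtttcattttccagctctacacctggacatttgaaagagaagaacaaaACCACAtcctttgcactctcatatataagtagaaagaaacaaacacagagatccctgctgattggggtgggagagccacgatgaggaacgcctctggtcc
Gzmb: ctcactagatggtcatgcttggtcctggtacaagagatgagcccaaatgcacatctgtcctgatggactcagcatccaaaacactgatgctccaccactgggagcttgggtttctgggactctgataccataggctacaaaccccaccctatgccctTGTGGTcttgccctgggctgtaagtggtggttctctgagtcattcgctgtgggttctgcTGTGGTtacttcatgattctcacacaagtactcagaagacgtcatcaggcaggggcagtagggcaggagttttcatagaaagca
Ncr1: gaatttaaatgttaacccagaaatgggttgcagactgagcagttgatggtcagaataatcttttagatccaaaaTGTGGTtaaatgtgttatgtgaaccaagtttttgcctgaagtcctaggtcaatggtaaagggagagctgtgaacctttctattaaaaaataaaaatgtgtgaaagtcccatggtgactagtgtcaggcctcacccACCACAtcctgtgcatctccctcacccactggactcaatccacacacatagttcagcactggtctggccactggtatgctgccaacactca
The Gzma window held 1 match and the Gzmb and Ncr1 windows 2 each. The motif was present in 25 of 97 windows (25.8%) of genes higher in NK than in each other population and in 16.8% of all 32851 windows of the table. Of the 99 higher genes 78 had a window, some more than 1, and of the 23 lower genes 14. A match is a description of letters, not a bound site.

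The next 2 windows are of genes low in NK, with capitals at GAAA, any 2 bases and GAAA again, on either strand, the core of the element that interferon-activated factors bind: Slfn5 at chr11:82951852-82952151 (plus strand) and Irgm1 at chr11:48871371-48871670 (minus strand).
Slfn5: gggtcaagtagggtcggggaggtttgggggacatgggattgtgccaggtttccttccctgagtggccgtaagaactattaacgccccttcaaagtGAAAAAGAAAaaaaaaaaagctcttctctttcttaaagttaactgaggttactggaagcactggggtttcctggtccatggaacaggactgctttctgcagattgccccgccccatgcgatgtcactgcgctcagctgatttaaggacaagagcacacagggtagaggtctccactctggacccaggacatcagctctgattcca
Irgm1: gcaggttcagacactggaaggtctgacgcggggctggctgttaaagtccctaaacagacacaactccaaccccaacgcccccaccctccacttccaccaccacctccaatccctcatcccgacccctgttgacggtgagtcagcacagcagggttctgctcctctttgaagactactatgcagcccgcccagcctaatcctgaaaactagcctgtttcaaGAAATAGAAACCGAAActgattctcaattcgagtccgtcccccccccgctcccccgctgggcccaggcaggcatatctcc
In Irgm1 the capitals cover 2 overlapping matches. This motif was present in 4 of 21 windows (19.0%) of genes lower in NK than in each other population, those of Ddx60, Gm12250, Irgm1 and Slfn5, in 4 of 97 (4.12%) windows of genes higher than in each, and in 3.44% of all windows.

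The receptor lists held 28 of the 484 genes higher in NK. Of 21 measured activating receptors and their adaptors, 19 were higher in NK and 0 lower, with a median difference of 3.05. For 10 of them both NK arrays lay above all 16 others, as they did for 3.65% of all genes. Among 18 measured inhibitory receptors, 9 were higher and 5 lower, with a median of 0.99. The shares of all genes called were 2.45% higher and 2.62% lower. Klri2 had 11.32 and 11.33 in NK, against 3.72, 4.05 and 8.44 (lowest, median and highest) on the other arrays, and the highest of these were DC arrays. Klri2 forms receptors with Klre1, which had 9.77 and 9.38 in NK, against 3.57, 3.89 and 6.82. In neither gene did an NK array overlap another array.

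The inhibitory receptor Klrb1b had 12.46 and 12.64 in NK, against 5.59, 6.27 and 9.37 on the other arrays. Klra3, the Ly49C receptor for class I MHC, had 12.18 and 11.96 in NK, against 4.99, 6.52 and 9.41. Both genes were apart from every other array, by 5.63 ± 0.10 (adjusted p = 1.33e-16) and 5.31 ± 0.14 (adjusted p = 1.35e-14) from the mean of the 8. Klrc1, the inhibitory chain NKG2A, had 12.29 and 12.07 in NK, against 4.71, 5.93 and 11.78 on the others, a difference of 5.11 ± 0.18 (adjusted p = 6.9e-13). Here the other high populations were NKT, at 11.68, and Tgd, at 10.92, and NK against NKT gave 0.50 ± 0.25, which was not called (adjusted p = 0.207).

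The 5 inhibitory receptor genes that were lower in NK are mainly genes of myeloid or activated T cells. Ceacam1, an adhesion receptor of granulocytes and macrophages, had 5.55 and 6.63 in NK, against means of 12.11 in GN and 12.08 in MF, a difference of -2.17 ± 0.31. Klra2, a myeloid member of the Ly49 family, had 4.998 and 5.57 in NK, against 11.29 in GN and 10.25 in MF (-1.58 ± 0.29). Pdcd1, which encodes PD-1, had 6.60 and 7.05 in NK, against 10.35 in Tgd (-1.16 ± 0.14). Klra2 lost its call without GN, at -0.95, and Pdcd1 without Tgd, Treg or NK replicate 2, at -1.0 to -0.82. Against the 5 lymphoid populations 1 gene of the list was lower, Pdcd1 at -1.84.

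**Figure D2:**
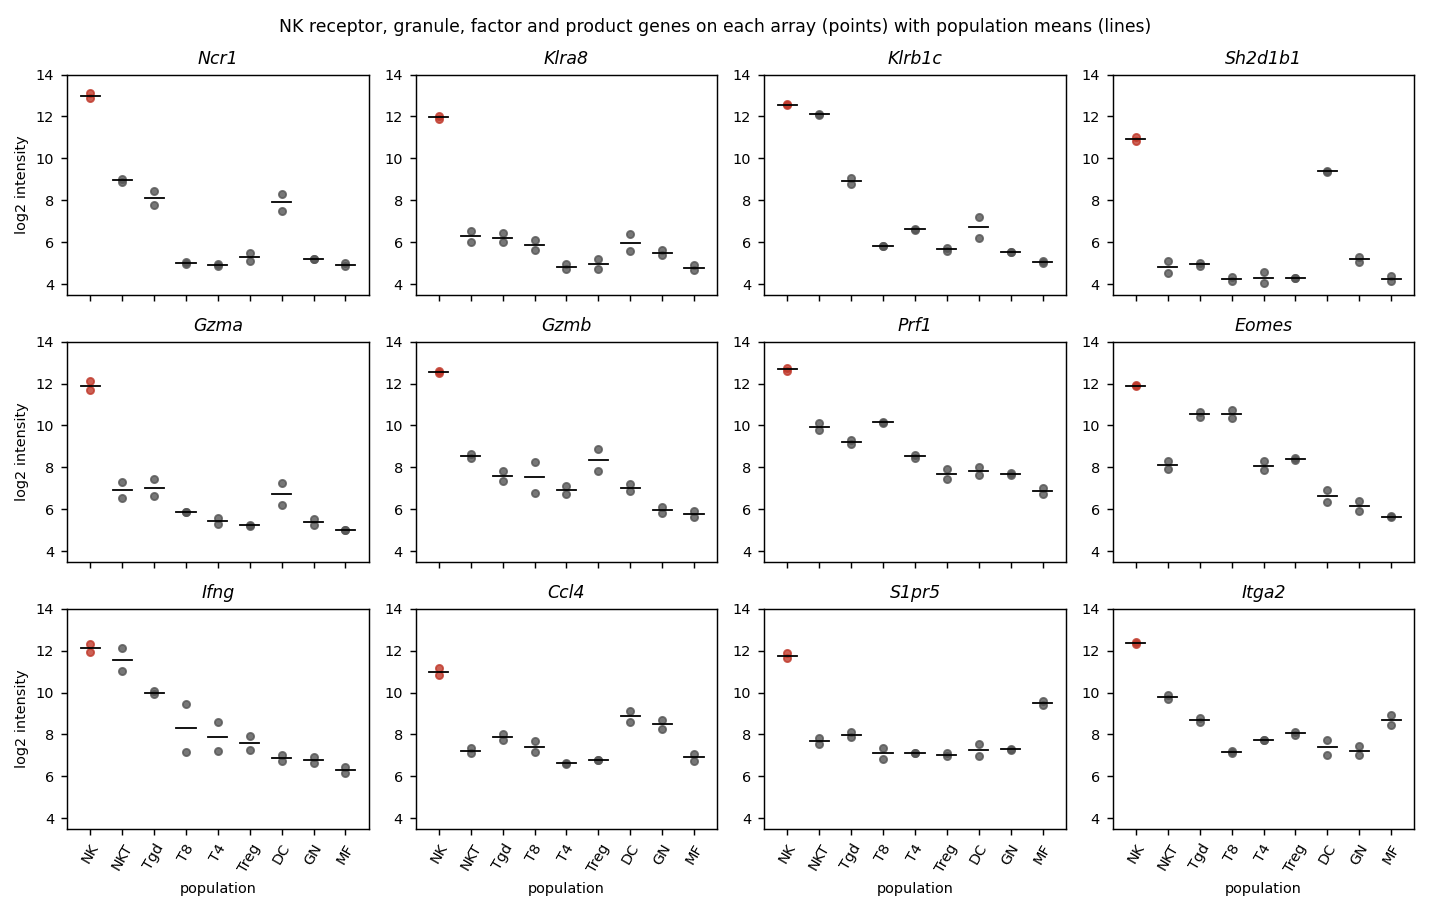
Log2 intensity of 12 genes on each of the 18 arrays (points) with the mean of each population (lines), populations along the horizontal axis with NK first and in red. Both NK arrays lie above all others for Ncr1, Klra8, Klrb1c, Sh2d1b1, Gzma, Gzmb, Prf1, Eomes, S1pr5 and Itga2. NKT come close for Klrb1c, at up to 12.13, and an NKT array overlaps NK for Ifng, at up to 12.13.

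Among killing genes, granzymes A, B and K, perforin and Fas ligand were higher in NK, while most other listed genes were not called. Of 26 measured granule and death ligand genes, 11 were higher and 0 lower in NK (2.45% and 2.62% over all genes). Their median was 0.50. Gzma, a tryptase of the granules, had 12.12 and 11.68 in NK, against 4.99, 5.73 and 7.44 on the other arrays, a difference of 5.95 ± 0.22 (adjusted p = 1.15e-12). Gzmb, the granzyme that cleaves caspases, had 12.50 and 12.58 in NK, against 5.61, 7.15 and 8.88 (5.34 ± 0.27, adjusted p = 4.36e-11). Perforin, Prf1, which forms pores in the target membrane, had 12.73 and 12.62 in NK, against 6.72, 8.25 and 10.16 (4.20 ± 0.13, adjusted p = 1.21e-13). No NK array overlapped another array in these 3 genes, and T8 came next for Prf1, at 10.14.

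Protease inhibitors of the serpin family, which include protectors of killer cells from their own granzymes, were also high, with Serpinb9b at 3.95, Serpinb9 at 3.21 and Serpinb6b at 3.13. Fasl (3.70), Nkg7 (3.46), Ctsw (3.09), Cst7 (2.53) and Gzmk (1.82) were the other members called. Gzmc, Gzmd, Gzme, Gzmf and Gzmg had differences between -0.10 and 0.29 and were not called, nor was the death ligand Tnfsf10, at -0.95. Genes of granule release were not called either, at 0.45 for Unc13d, 0.42 for Stx11, -0.39 for Rab27a and -0.73 for Lyst. Summed over the list, intensity was 66771.7 and 63860.2 in NK, against 19031.2 to 42072.9 on the other arrays.

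Of 21 measured NK transcription factors, 11 were higher and 0 lower in NK (2.45% and 2.62% over all genes). Their median was 1.15, and 10 were not called. Eomes, a T-box factor of NK cells and memory CD8 T cells, had 11.87 and 11.91 in NK, against 5.61, 8.13 and 10.74 on the other arrays, a difference of 3.87 ± 0.15 (adjusted p = 2.58e-12). The related factor Tbx21 had 12.25 and 12.23 in NK, against 6.63, 9.24 and 11.77 (2.91 ± 0.12). Both genes were higher on the NK arrays than on any other array. Zeb2, which acts late in NK maturation, had 10.78 and 10.74 in NK and lay within the range of the others, 5.65 to 10.98, because GN had a mean of 10.75 and MF of 10.81. Against the lymphoid populations alone its difference was 4.36, and Irf8 had 2.06 there and 1.61 against the 8.

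Adaptors and kinases below the receptors were partly those that also serve myeloid cells. Of 28 measured genes of proximal signalling, 13 were higher and 1 lower (2.45% and 2.62% over all genes), with a median of 0.80. Sh2d1b1 had 11.01 and 10.85 in NK, against 4.06, 4.56 and 9.41 on the other arrays, and DC held the highest of these. Syk, a tyrosine kinase that reads the tails of DAP12 and FcR gamma, had 10.73 and 10.69 in NK (2.35 ± 0.08), with means of 10.61 in DC, 11.90 in GN and 10.43 in MF, and 6.56 to 7.28 in the other lymphoid populations. Lat2, an adaptor of non-T cells, had 10.12 and 10.22 in NK, against 6.65 to 9.87 elsewhere (2.39 ± 0.13). The only lower gene was Plcg1, the phospholipase of T cell receptor signalling, which had 7.03 and 7.09 in NK, against 7.15, 10.41 and 10.85 on the others (-2.64 ± 0.09, adjusted p = 4.1e-13), while Plcg2 was higher at 2.15. Both NK arrays lay below all 16 others for Plcg1.

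Cytokine receptor chains went both ways. Of 21 measured, 4 were higher and 5 lower (2.45% and 2.62% over all genes), with a median of -0.29. The higher ones were a chain of the IL-12 receptor, the beta chain shared by IL-2 and IL-15, and both IL-18 chains: Il12rb2 had 12.15 and 12.25 in NK, against 6.69, 7.89 and 11.77 on the others (3.44 ± 0.14), Il2rb differed by 2.98 ± 0.17, and Il18rap and Il18r1 by 2.52 and 2.25. Against NKT, Il12rb2 differed by 0.54 ± 0.19 and Il2rb by 0.14 ± 0.22, and neither was called. Lower chains were Ifngr2 (-3.01), Il6ra (-2.77), Il21r (-1.83), Il4ra (-1.58) and Il2ra (-1.13). The call of Il2ra was lost, at -0.96 to -0.56, without NKT, T4, Tgd or Treg. Il12rb1 (0.44) and Il15ra (-0.53) were not called. Il6ra, the IL-6 receptor, had 7.30 and 7.79 in NK, against 7.82, 10.64 and 11.41 on the other arrays, and NKT, at 7.89, were nearest.

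Of 25 measured homing and adhesion genes, 12 were higher and 4 lower (2.45% and 2.62% over all genes). The other 9 were not called, and the list median was 0.73. Itga2, the collagen-binding integrin CD49b used to mark mouse NK cells, had 12.39 and 12.32 in NK, against 7.04, 7.87 and 9.88 on the other arrays (4.26 ± 0.15). S1pr5, a sphingosine phosphate receptor that draws NK cells out of bone marrow and lymph nodes, had 11.87 and 11.63 in NK, against 6.82, 7.34 and 9.62 (4.13 ± 0.14), and MF came next. Neither gene overlapped on any array. Itgax, which encodes CD11c, had 11.74 and 11.999 in NK, within the range of the others because DC had a mean of 12.27. The 4 lower genes were Ccr1 (-2.40), Ccr7 (-2.39), Itgae (-1.39) and Cxcr6 (-1.25), and Cxcr6 lost its call without NKT or Tgd, at -0.98 to -0.67. Ccr7, the receptor for lymph node chemokines, had 7.64 and 7.74 in NK, against means of 12.22 in T4 and 12.08 in T8, but 7.85 in NKT.

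Among 20 measured cytokines and chemokines, the 5 higher genes were Ifng, Ccl3, Xcl1, Ccl4 and Ccl5, and the 2 lower ones Csf1 and Ltb. The list median was -0.03, and over all genes 2.45% were higher and 2.62% lower. Ifng had 11.94 and 12.34 in NK, against 6.17, 7.23 and 12.13 on the other arrays, a difference of 3.97 ± 0.40 (adjusted p = 4.83e-07). An NKT array overlapped the NK arrays, and NK against NKT gave 0.57 ± 0.53 (adjusted p = 0.535). Ccl3, a chemokine that draws monocytes and NK cells, had 13.35 and 13.39 in NK, against 6.04, 10.02 and 12.70 (3.85 ± 0.31). Xcl1, which draws cross-presenting dendritic cells, had 12.002 and 12.03 in NK, against 6.41, 7.62 and 11.80 (3.65 ± 0.13). Ccl3 and Xcl1 stood above every other array, Xcl1 by a margin that was not called against NKT (0.22 ± 0.17). Csf1, the macrophage growth factor, had 7.02 and 6.90 in NK, against 7.16, 8.52 and 11.21 (-1.71 ± 0.11). Csf1 on both NK arrays was below every other array.

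T cell genes were low in NK, and some CD3 chains lay between the T cell and the myeloid level. Of 18 measured T cell genes, 0 were higher and 14 lower in NK, with a median of -1.41, and against the 5 lymphoid populations 17 were lower. Over all genes 2.62% and 1.82% were lower in these comparisons. T cell genes are compared by their sum next. Their summed intensity was 5265.9 and 5838.5 in NK, against 31140.0 to 46790.8 on the other lymphoid arrays and 1707.5 to 5634.4 on the myeloid ones. Themis, needed in T cell development, had 5.83 and 6.51 in NK, against means of 9.92 to 11.65 in the T and NKT populations and 5.50 to 5.73 in the myeloid ones. Cd3e had 8.23 and 8.88 in NK, between 12.70 to 13.06 on the 10 other lymphoid arrays and 7.39 to 7.69 on the 6 myeloid ones. Cd3g had 9.25 and 8.85 in NK, against 12.29 to 12.58 on the lymphoid and 5.27 to 6.39 on the myeloid arrays. For both CD3 chains the NK arrays overlapped neither set, whereas Cd3d, with 6.99 and 7.09 in NK, overlapped the myeloid arrays (5.78 to 7.29). NK cells are known to use the zeta chain Cd247, which had 9.80 and 9.89 in NK, within the 9.50 to 10.65 of the other lymphoid arrays.

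The 2 gamma delta receptor gene segments tested, examined after their values were seen, were also above the myeloid arrays in NK. Trgv1 had 9.25 and 9.58 in NK, against 4.96 to 6.64 on the myeloid arrays, and Trdv2-2 had 7.34 and 7.39, against 4.98 to 5.85. The highest lymphoid arrays had 13.02 and 12.44 in these 2 genes. The gate as labelled would admit TCRB- NK1.1+ cells of this kind. Whether a share of such cells or transcription of these loci in NK cells gave these values was not tested, and in sorted bulk samples fewer cells of a type and less RNA per cell cannot be told apart.

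Among the lists used here, interferon-stimulated genes and GTPases had the lowest medians. Of 25 measured type I interferon-stimulated genes, 0 were higher and 20 lower in NK, with a median of -1.57, and for 16 of the 25 both NK arrays lay below all 16 others. Among 11 measured GTPases of host defence, 0 were higher and 9 lower, with a median of -1.97, and both NK arrays were lowest for 7. Feedback and checkpoint genes had 5 of 11 lower (median -0.85), and genes of the IFNg receptor and its signalling 2 higher and 5 lower of 14 (median -0.73). Of 14 MHC class I presentation genes 1 was lower (median -0.51), though both NK arrays lay below all 16 others for 4 of them. Of 10 MHC class II genes 3 were lower (median -0.54), and both NK arrays were lowest for 0. Over all genes tested the median was -0.02, 2.62% were lower, and both NK arrays lay below all 16 others for 1.66%.

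Of 10 schlafen genes tested, 4 were lower in NK (Slfn1, Slfn5, Slfn4 and Slfn2) and 0 higher. Over all genes the shares were 2.62% lower and 2.45% higher. Slfn1 had 7.05 and 7.14 in NK, against 9.69, 11.19 and 12.68 on the other arrays, a difference of -4.12 ± 0.20 (adjusted p = 3.29e-11). Slfn5, of the same family, had 6.69 and 6.72 in NK, against 8.85, 10.31 and 12.62 (-3.84 ± 0.14, adjusted p = 5.83e-13). Oas2, which makes the second messenger of RNase L, had 6.80 and 7.14 in NK, against 8.85, 10.11 and 12.52 (-3.47 ± 0.12, adjusted p = 6.66e-13). In each of these genes the 2 NK arrays were below all 16 others, with GN at the top.

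Ifit1, which binds viral RNA, had 7.62 and 7.49 in NK, against 8.14, 10.83 and 12.10 on the other arrays (-3.11 ± 0.14), and MF, at 8.35, came nearest. Ifi27l2a had 6.85 and 7.31 in NK, against 9.13, 10.06 and 11.09 (-3.04 ± 0.15). Parp12, an interferon-induced ADP-ribosyltransferase, had 7.72 and 7.16 in NK, against 9.52, 10.16 and 11.999 (-3.16 ± 0.13). All 3 genes were lowest on the NK arrays.

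Of the GTPases, Iigp1 had 6.70 and 6.82 in NK, against 8.25, 10.44 and 11.96 on the other arrays, a difference of -3.44 ± 0.14 (adjusted p = 3.61e-12). Irgm1, which acts on vacuoles and autophagy, had 9.67 and 9.46 in NK, against 10.59, 11.95 and 12.53 (-2.28 ± 0.08, adjusted p = 2.65e-13). Gm4951, a relative of Iigp1, had 6.58 and 6.06 in NK, against 6.90, 8.32 and 11.59 (-2.34 ± 0.14). NKT were the nearest population in all 3 genes, and against NKT the difference of Gm4951, -0.67 ± 0.19, was not called. Gbp4 and Gbp8 were the 2 members not called, at -0.90 and -0.89. Summed intensity of the GTPases was 8132.1 and 6106.0 in NK, against 12713.0 to 14056.1 in NKT and 21653.7 to 32775.4 in the other populations.

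**Figure D3:**
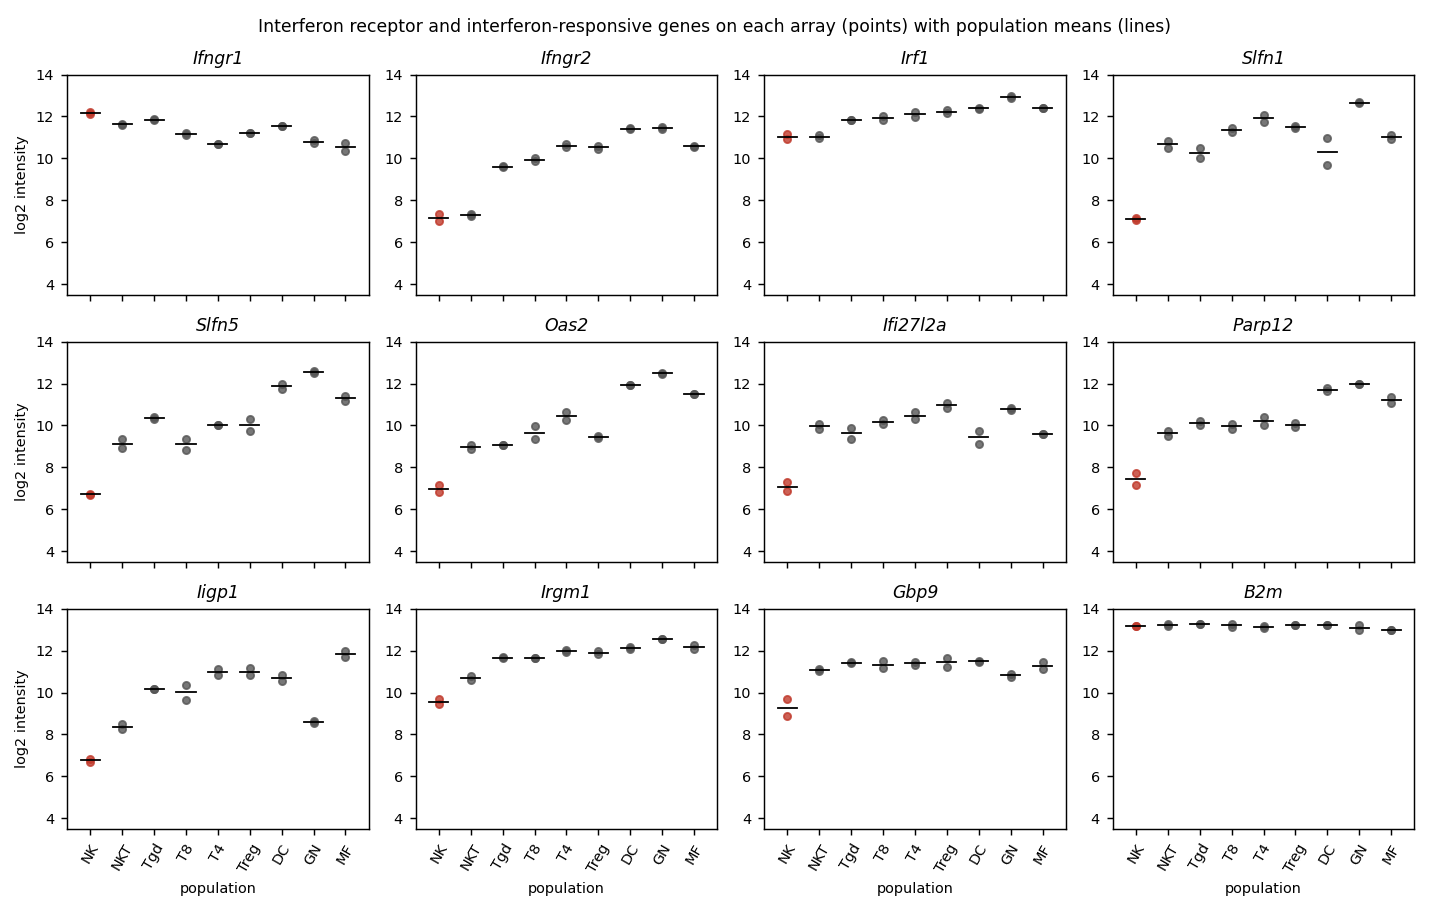
Log2 intensity of 12 interferon receptor and interferon-responsive genes on each of the 18 arrays (points) with population means (lines), populations along the horizontal axis with NK first and in red. Both NK arrays lie below all others for Slfn1, Slfn5, Oas2, Ifi27l2a, Parp12, Iigp1, Irgm1 and Gbp9, while B2m differs by -0.0037 from the mean of the 8 others.

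The receptor chains for IFNg itself were split. Ifngr1, the ligand-binding chain, had 12.21 and 12.10 in NK, against 10.37, 11.21 and 11.86 on the other arrays, the highest of all populations. Its difference of 0.98 ± 0.08 (adjusted p = 3.17e-08) fell just short of 2-fold and was not called; it passed under 6 alternative settings, at 1.00 to 1.07. Ifngr2, the chain that brings in Jak2, had 6.99 and 7.34 in NK, against 7.23, 10.54 and 11.49, a difference of -3.01 ± 0.09 (adjusted p = 6.98e-14). An NKT array overlapped the NK arrays for Ifngr2, and NK against NKT gave -0.13 ± 0.12 (adjusted p = 0.501). Summed intensity of the 25 type I interferon-stimulated genes was 15574.6 and 13482.4 in NK, against 26909.1 to 31519.2 in NKT, and both NKT arrays lay above both NK arrays. The mean Ifngr2 level of NKT was 7.30. Whether the level of Ifngr2 bears on these sums was not tested.

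Downstream, Irf1, an early factor induced by IFNg, had 11.16 and 10.91 in NK, against 10.97, 12.19 and 12.96 on the other arrays (-1.07 ± 0.08), and NK against NKT gave -0.01 ± 0.10. The call of Irf1 was lost at -0.95 to -0.73 without GN, without NK replicate 3 or with the mean of its 2 probe sets, of which the dimmer had -0.39. Stat2 had 9.18 and 8.87 in NK, against 9.54, 10.76 and 11.88 (-1.78 ± 0.09). Irf8 and Tyk2 were the 2 higher members, at 1.61 and 1.31. Socs1, an inhibitor of the JAK kinases, had 8.87 and 9.06 in NK and a difference of -1.36 ± 0.12 from the 8, but 0.0037 ± 0.17 from NKT. The checkpoint ligand Cd274 (PD-L1) had 9.28 and 9.16 in NK, below the 9.89 to 13.13 of all other arrays (-2.29 ± 0.07). Usp18, a brake on type I interferon signalling, had 8.90 and 8.77 in NK, below the 9.70 to 11.85 of the others (-2.17 ± 0.12).

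In antigen presentation, the 1 class I gene called was Tap1, the peptide transporter, with 10.72 and 10.63 in NK, against 11.08, 11.84 and 12.33 on the others (-1.10 ± 0.06). Of the rest, Psmb9 (-0.95), Psme2 (-0.94) and Nlrc5 (-0.86) had values just inside 2-fold, and B2m had -0.0037. The value of Nlrc5 is that of its brightest probe set. Its other probe sets had -1.27 to -0.68, most of them beyond 2-fold, so its standing depends on the probe set. Without NK replicate 2 the class I count was 3 in place of 1. The 3 class II genes, Ctss (-2.06), H2-Ob (-1.24) and Ifi30 (-1.17), were lower against the 8, and Ifi30 differed by -0.07 from the lymphoid mean. H2-Ob lost its call without DC, at -0.83, and Ifi30 without DC or MF, at -0.84 to -0.77. The class II count was 5 without NK replicate 3.

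**Figure D4:**
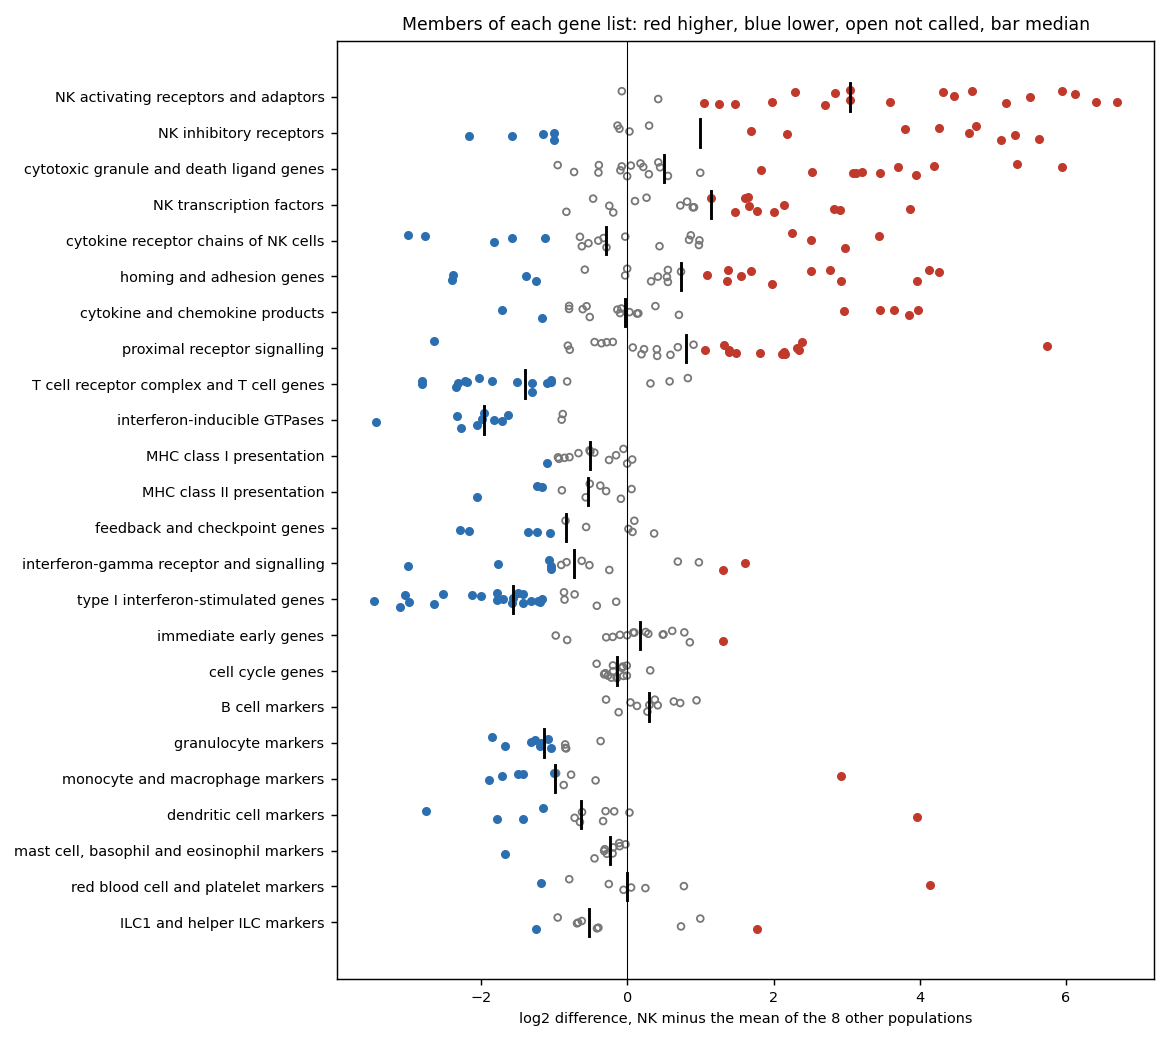
Log2 difference of NK from the mean of the 8 other populations (horizontal axis) for each measured member of 24 gene lists (rows), with members called higher in red, called lower in blue, not called as open circles and the list median as a bar. Medians run from 3.05 for activating receptors to -1.97 for the interferon-inducible GTPases, against -0.02 over all genes.

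A stricter question is which genes set NK apart from every other population and not just from their mean. Called in the same direction in each of 8 pairwise comparisons were 99 genes higher (0.501%) and 23 lower (0.116%) in NK. Of the 99, 11 carried a Klr symbol and 16 were on the receptor and granule lists, and 75 were on none of the lists used here. The population nearest to NK was NKT for 38, GN for 16, Tgd for 15, DC for 12, MF for 7, Treg for 6, T8 for 4 and T4 for 1 of them. For the 23 lower genes it was NKT for 9, Tgd for 4, MF for 3, T8, Treg and GN for 2 each and DC for 1.

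By the gap to the nearest population, Klra8 came first with 5.69, followed by Gzma with 4.87, Adamts14 with 4.30, Ncr1 with 4.03, Gzmb with 4.02, Klrb1a with 3.89, Serpinb9b with 3.82, Cma1 with 3.71, Gpx8 with 3.44 and Klf12 with 3.41. Adamts14, a protease that trims procollagen, had 12.11 and 11.77 in NK, against 6.82, 7.34 and 7.66 on the other arrays. Cma1, a chymase known from mast cells, had 9.13 and 9.55 in NK, against 5.33, 5.52 and 5.76. Of 10 mast cell, basophil and eosinophil markers 0 were higher. Over all genes 2.45% were higher, so a count of 0 among so few genes says little. The summed intensity of these markers was 692.3 and 809.9 in NK, against 694.5 to 9202.4 elsewhere.

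Gpx8, a peroxidase of the endoplasmic reticulum, had 9.16 and 9.78 in NK, against 5.64, 5.96 and 6.06 on the other arrays, and Klf12, a zinc finger factor, had 10.33 and 10.43, against 5.82, 6.30 and 6.995. Serpinb9b had 10.33 and 9.97 in NK, against 5.94, 6.22 and 6.37. These 3 genes were picked by their gap to every other population, so the lack of overlap with the other 16 arrays follows from that choice. Car2, a carbonic anhydrase also listed as a red cell marker, had 11.65 and 11.57 in NK, against 5.80, 7.67 and 8.96. Of the other 7 red cell and platelet markers 0 were higher, a count that again says little where 2.45% of all genes were higher. The sum of all 8, Car2 included, was 3976.6 and 4055.3 in NK, against 889.6 to 1247.5 on the other lymphoid arrays.

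The 5 genes furthest below every other population were, by the difference from the nearest population, Slfn1 (-3.18), Sgms1 (-2.51), Slfn5 (-2.40), Ifi27l2a (-2.36) and Parp12 (-2.19). Sgms1 had 5.55 and 5.69 in NK, against 8.07, 8.93 and 10.20 on the other arrays. After them came Oas2 (-1.99), Rtp4 (-1.70), Isg20 (-1.63), Iigp1 (-1.61), Gm12250 (-1.55), Gbp9 (-1.53), Tlr7 (-1.51) and Tlr1 (-1.42). Of the 23, 8 were on one of the 5 interferon lists. With NKT left out, 48 genes in place of 23 were lower than in each remaining population, and these included all 23.

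Of the 484 higher genes 32 lay in 9 unbroken runs of 3 or more, and of the 517 lower genes 41 lay in 12 such runs, by the gene order of assembly GRCm38.p6 among the genes tested. The number that gene order alone would give was not tested. All 23 Klr genes tested lie on chromosome 6, where 18 were higher and 1, Klra2, lower. Unbroken runs of higher genes there were Klre1, Klrd1, Klrk1, Klrc3, Klrc2 and Klrc1, then Klra5, Klra6, Klra8 and Klra3, and Klrb1, Klrb1c and Klrb1b. Probe sets of such close relatives can bind each other's transcripts, so the level of 1 member is uncertain, and Klra1, Klra4, Klra7, Klra9 and Klra10 had no probe set of their own and were not analysed here. Gimap9, Gimap4, Gimap6 and Gimap7 formed another run on this chromosome.

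Outside the Klr region, Gpx8 stood beside Gzma and Gzmk on chromosome 13, all 3 among the 99 genes apart, and the serpin genes Serpinb6b, Serpinb9 and Serpinb9b formed a run on the same chromosome. On chromosome 19, Cyp17a1, Borcs7 and As3mt formed a run of which all 3 members were higher than in each other population, with smallest gaps of 2.77, 2.43 and 2.15. Cyp17a1, a steroid hydroxylase, had 8.79 and 9.14 in NK, against 5.78, 5.98 and 6.25 on the other arrays. Runs of lower genes held Ifit2, Ifit3, Ifit3b, Ifit1bl2 and Ifit1 with Lipa, then Gbp5, Gbp7, Gbp3 and Gbp2b, then Ifitm2, Ifitm1, Ifitm3 and Ifitm6, and Slfn2, Slfn1 and Slfn4. These are families of near copies, and the signal of 1 probe set may again include a relative.

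Against the 5 other lymphoid populations alone, signalling adaptors shared with myeloid cells were among the higher genes. In this comparison 476 genes (2.41%) were higher and 360 (1.82%) lower in NK. The highest were Ncr1 (6.54), Sh2d1b1 (6.40), Klra8 (6.34) and Klri2 (6.27), and the lowest Themis (-4.86), Cd3e (-4.32), Cd5 (-4.26) and Dapl1 (-4.25). The DAP12 adaptor Tyrobp had 12.53 and 12.50 in NK, against 6.59 to 8.82 on the lymphoid arrays and 12.04 to 12.68 on the myeloid ones (4.83 ± 0.09). Fcer1g, the FcR gamma chain, had 13.03 and 12.98 in NK, against 7.11 to 11.02 and 12.42 to 13.11 (4.38 ± 0.13). For both adaptors NK overlapped the myeloid and not the lymphoid arrays. These comparisons share their NK arrays with the one above, so they are not independent of it.

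NKT cells carry NK1.1 and a T cell receptor, and against them 427 genes (2.16%) were higher and 299 (1.51%) lower in NK. Sh2d1b1 was highest, with 11.01 and 10.85 in NK, against 4.55 and 5.12 in NKT (6.09 ± 0.17), followed by Klra8 (5.69), Gzma (4.98) and Car5b (4.74), a mitochondrial carbonic anhydrase. Lowest were Cxcr6, a chemokine receptor of resident T cells, with 7.32 and 7.16 in NK, against 12.51 and 12.57 in NKT (-5.30 ± 0.16), Ccr9 (-4.80), Atp8a2 (-4.65) and Themis (-4.57). These genes were picked as the highest and lowest, so the lack of overlap between the 2 populations largely follows from that choice. Of the activating receptors 12 of 21 were higher and 1 lower than in NKT, and of the transcription factors 6 of 21 were higher, among them Zeb2 (4.22), Eomes (3.76) and Irf8 (3.19).

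Several genes central to NK cells showed small differences from NKT that were not called: Klrb1c (0.46), Klrc1 (0.50), Tbx21 (0.49), Il12rb2 (0.54), Il2rb (0.14), Ifng (0.57), Xcl1 (0.22), Fasl (0.29) and Nkg7 (0.41). The interferon genes gave a mixed picture. Of 25 type I interferon-stimulated genes 14 were lower than in NKT (median -1.11), of 11 GTPases 3 were lower (median -0.85), and none of either list was higher. Over all genes the median difference from NKT was -0.05.

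Against CD8 T cells, the other killer lymphocyte, 615 genes (3.11%) were higher and 449 (2.27%) lower in NK. Highest were Ncr1, with 12.89 and 13.10 in NK, against 5.05 and 4.94 in T8 (8.004 ± 0.22), Klri2 (7.34), Klrc3 (6.99) and Klrb1b (6.81). Lowest were Dapl1, with 6.60 and 7.59 in NK, against 12.94 and 13.06 in T8 (-5.91 ± 0.23), Themis (-5.47), Cd8b1 (-5.36) and Cd8a (-5.30). The receptor genes and the CD8 chains did not overlap between the populations, which largely follows from their choice as the highest and lowest. Granule genes differed by gene, with Gzma at 6.03, Gzmb at 5.02 and Prf1 at 2.53, all called, and Nkg7 at 0.53, not called. Eomes was higher by 1.35. Of the GTPases 10 of 11 were lower than in T8 and of the type I genes 11 of 25.

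**Figure D5:**
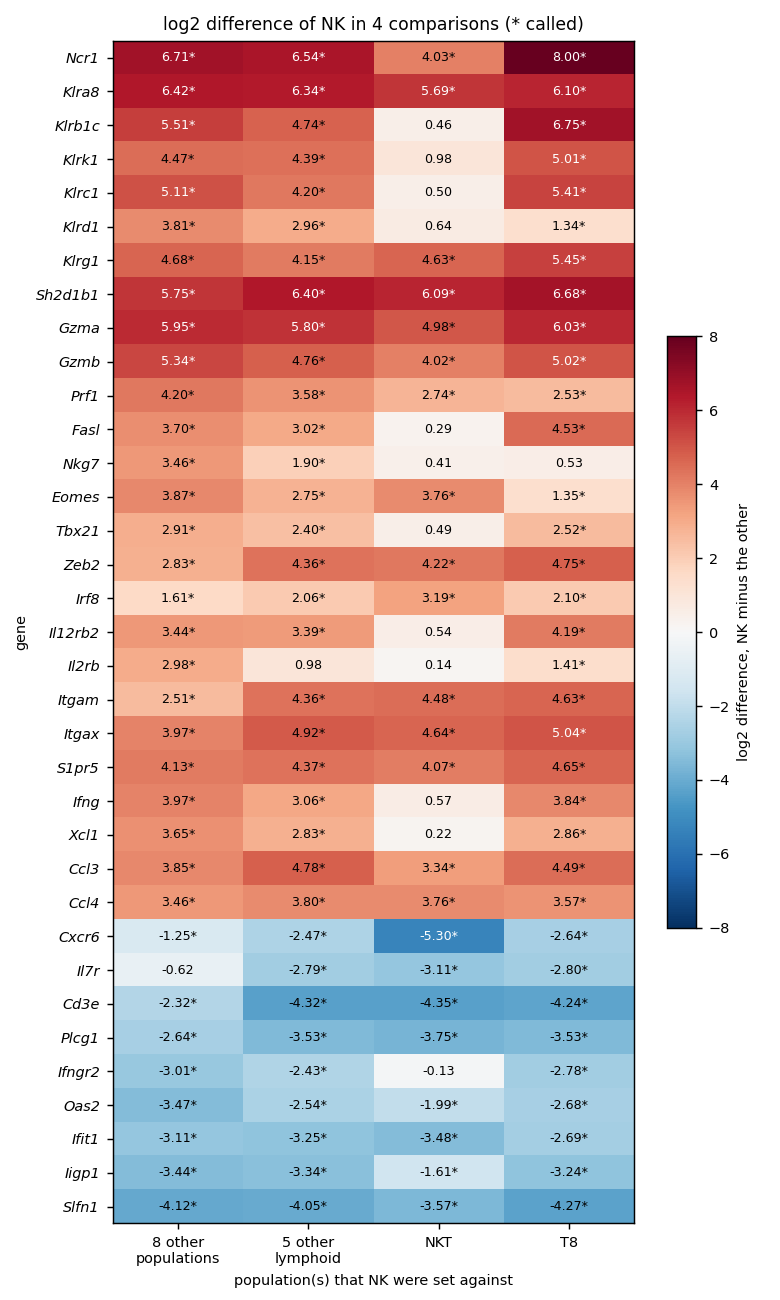
Log2 difference of NK from the mean of the 8 other populations, from the mean of the 5 other lymphoid ones, from NKT and from T8 (columns) for 35 genes (rows), with the value in each cell, a colour scale from -8 to 8 and an asterisk where the gene was called. Ncr1 runs from 4.03 against NKT to 8.004 against T8, and Ifngr2 is -3.01 against the 8 but -0.13 against NKT.

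B cell and granulocyte markers in the NK samples summed to values within the range of the other lymphoid arrays. Monocyte and macrophage markers summed to values above it, and a large part of that sum was Ccr2, more so on replicate 2 than on replicate 3. None of 11 B cell markers was called, where 2.45% of all genes were called higher and 2.62% lower. Their summed intensity was 1692.0 and 2296.7 in NK, against 1085.6 to 3238.0 on the other lymphoid arrays. Granulocyte markers summed to 902.6 and 1460.4 in NK, against 744.3 to 2334.5 on the lymphoid arrays, and 8 of 12 were called lower against the 8. That count was 2 without NK replicate 2 and 1 without the GN population. On replicate 3 these markers lay a median of 0.44 above replicate 2, with 3 of 12 at least 2-fold higher, monocyte and macrophage markers lay 0.49 higher, and B cell markers 0.41 higher. Lyz2, a lysozyme of myeloid cells, had 7.40 on replicate 2 and 8.82 on replicate 3.

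Monocyte and macrophage markers summed to 4002.6 and 3860.3 in NK, against 1096.9 to 3292.0 on the other lymphoid arrays and 13052.1 to 51011.1 on the myeloid ones. Of the 10 markers 5 were lower against the 8, among them Lyz2 (-1.90), Adgre1 (-1.72) and Cd14 (-1.50), and 1, Ccr2, was higher at 2.92, with 11.45 and 10.78 in NK, against 6.88 to 10.64 elsewhere. Ccr2 is also a gene of NK and NKT cells, and NKT had a mean of 10.61. It made up a large part of the summed intensity in NK, but a smaller one on replicate 3, where it had 10.78. The 10 markers lay a median of 0.49 higher on replicate 3, with 2 of them at least 2-fold higher. The sum without Ccr2 was not computed, so whether the remaining markers lay within the lymphoid range is not shown. Against the 5 other lymphoid populations 1 of the 10 markers was higher and 0 lower, with a median of 0.09. Of 12 dendritic cell markers only Itgax was higher and 4 were lower, namely Ccr9 (-2.75), Irf4 (-1.79), Cd209a (-1.43) and Clec9a (-1.15). Against the 8 populations 2.45% of all genes were higher and 2.62% lower. Without MF, Cd14 lost its call at -0.96, and without DC, Cd209a at -0.78. Flt3 had 6.31 and 6.57 in NK, against means of 11.61 in DC and 6.34 to 6.66 in the remaining populations. Of 10 markers of other innate lymphoid cells, Gata3 was higher (1.78) and Cxcr6 lower (-1.25) against the 8. Against the 5 other lymphoid populations 0 were higher and 3 lower, and against NKT 0 were higher and 4 lower. The shares of all genes lower there were 1.82% and 1.51%. Summed intensity of the 10 markers was 5933.0 and 6593.3 in NK, against 9638.9 to 22339.8 on the other lymphoid arrays. Il7r, known from helper cells of this kind, had 9.72 and 9.63 in NK, against 11.86 to 12.84 on those arrays.

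Cell cycle genes were not called in either direction, 0 of 15, where 2.45% of all genes were called higher and 2.62% lower. Their median was -0.15, but they lay a median of 0.77 lower on NK replicate 3 than on replicate 2. Immediate early genes, which respond to handling and stimulation, had 1 of 16 higher, Dusp2 at 1.31, and a median of 0.17. Their summed intensity was 18102.6 and 24930.0 in NK, against 8647.8 to 45242.6 on the other arrays. The part of these array differences in any single result was not tested.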

How the data were processed

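The deposited values were linear array intensities of each probe set, produced by the authors with Affymetrix Power Tools and RMA per the submitters' processing notes; versions and joint normalization of the arrays were not stated. RMA compresses differences of dim genes. Log2 of each intensity was used throughout.

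Of 24922 probe sets, 21425 had 1 symbol in GEO's platform annotation, 1399 several and 2098 none listed, and 21347 of the single symbols were updated by Entrez number with a RefSeq table (GRCm38.p6) that also gave gene order. The brightest probe set represented each of 921 genes with several, leaving 19752 genes. Listed genes without a probe set of their own were not analysed here.

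One limma model (version 3.58.1 under R 4.3.3; eBayes with trend on lmFit contrasts) fitted a mean for each population without covariates, with 9 residual and 7.69 prior degrees of freedom. Errors are its SE. Every p is two-sided and Benjamini-Hochberg adjusted over all genes, and calls needed adjusted p under 0.05 with a 2-fold difference or more. Precision is limited by there being 2 arrays in each population. The fit was tested on simulated data.

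The NK members, gene lists and tests were chosen with earlier results of these data known. Named were the 12 highest and 10 lowest called genes against the 8 populations, the 4 highest and lowest in each other comparison, the 10 and 5 genes furthest from every population, and the 3 called members of each list with the largest difference in each direction, besides both IFNg receptor chains, Ifng, the markers and the sort genes. Other genes were named as list members or neighbours after their values were seen. Many named genes were thus picked by their differences, so their lack of overlap on the arrays is no separate finding. Alternatives varied the scaling, offset, dim-gene filter, probe set rule, trend, array weights, replicate block, populations and arrays.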

Additional observations from a re-analysis of the deposited data

How the results depend on the processing

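The comparison with the 8 populations and that with each of them were refitted under 34 alternative settings, the lymphoid comparison under 31 and those with NKT and T8 under 26 each. The 10 counts of called genes stayed within 1.5 times their value in 301 refits and moved further in 1. That was the number of genes lower in NK than in each other population, 48 without the NKT population in place of 23, since fewer comparisons then had to pass. Leaving out 1 array at a time gave 479 to 553 higher and 502 to 587 lower genes against the 8 populations, 468 to 535 and 350 to 412 against the lymphoid ones, 378 to 479 and 274 to 369 against NKT, 606 to 657 and 418 to 534 against T8, and 96 to 106 and 22 to 30 apart from each population. A population left with 1 array was assumed to vary like the others. For the 98 genes named by the rule, 3293 of 3332 refitted results had the same call, 33 lost and 6 gained it, and 0 reversed; 17 genes were affected. Cxcr2, Ly6g, Lyz2, Pf4, Cd8a and Pdcd1 lost the call without NK replicate 2, and Ly6g and Lyz2 also with array weights; the cause was not tested. Without 1 population, 15 named genes lost the call, at -1.0 to -0.38, among them H2-Ob, Ifi30, Il2ra, Cxcr6, Klra2, Pdcd1, Cd14 and Cd209a. Replicate numbers were not taken to pair the samples. DC, GN and NKT carried numbers 1 and 2 and the other populations 2 and 3, so some pairs of populations shared only number 2. Deviations of same-numbered arrays correlated above 0.1 in 11 of 36 pairs of populations (-0.20 to 0.47), which does not settle whether the numbers pair the samples. Among these, NK correlated with T8 at 0.47, Treg at 0.33, NKT at 0.28 and T4 at 0.13, as a hint from the data and not the design. With the replicate block the counts were 481 and 540 against the 8 populations, 471 and 368 against the lymphoid ones, 393 and 318 against NKT, 617 and 451 against T8, and 99 and 24 apart from each. With 2 arrays per population no outlier test was possible.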
